A study of Mus musculus with 8 samples.

Results

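The expression of 10 transcription factors that pattern the limb and its mesenchyme (Tbx5, Tbx4, Pitx1, Hand2, Msx1, Lhx9, Prrx1, Twist1, Tbx15 and Shox2) was followed across 8 RNA-seq libraries of primary mouse embryonic fibroblasts. The members were taken by name from a table of 24972 genes. The rule itself uses no measured value, but the 10 were chosen with earlier results of these data known. All 10 passed the filter for testing, a mean of at least 10 normalized counts over the 8 libraries, as did 13267 genes in all. The cultures came from embryos at embryonic day 14.0, were passaged 2 times in DMEM with fetal bovine serum, and received no treatment. There were 4 genotypes with 2 libraries each: WT, heterozygous for Tfam (Tfam+/-), homozygous null for Zbp1 (Zbp1-/-), and both together (Tfam+/-Zbp1-/-). Tfam packages mitochondrial DNA and drives its transcription, and Zbp1 senses Z-form nucleic acid. The labels leave out whether paired libraries trace to separate embryos, pooled embryos or 1 culture, and which parts of the embryo were plated, so p-values measure only the spread between these libraries. Such cultures mix fibroblasts from several body regions, and a bulk library cannot tell more cells of one region apart from more RNA per cell.

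The limb bud is a pocket of lateral plate mesenchyme under an ectodermal cap. Tbx5 starts the forelimb, Tbx4 and Pitx1 act in the hindlimb, and Hand2 sets up the posterior margin that makes Shh. Msx1, Lhx9, Prrx1, Twist1, Shox2 and Tbx15 work in the mesenchyme that grows out, shapes the proximal and distal segments and forms the skeleton. Cultured fibroblasts are known to keep part of the positional gene expression of the place they came from.

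The 8 libraries summed to 16752835 to 18303036 normalized counts, with 16051 to 16261 genes above 0. Tfam was at 629 and 610.1 normalized counts (WT), 278 and 365 (Tfam+/-), 675 and 471 (Zbp1-/-), and 424 and 375 (Tfam+/-Zbp1-/-), so all 4 libraries labelled Tfam+/- lay below the other 4. Zbp1 was at 7.34 and 3.19 (WT), 64.6 and 69.8 (Tfam+/-), 3.79 and 1.03 (Zbp1-/-), and 0.861 and 2.69 (Tfam+/-Zbp1-/-). WT itself was close to the null libraries, so Zbp1 checks the null label only against Tfam+/-. The pairs of libraries were not alike in how far they differed. The WT pair and the Tfam+/-Zbp1-/- pair differed by little more than the sampling of reads would give (median chi-square of 0.549 and 0.559 over genes, with normalized counts taken as reads, against 0.455 for sampling alone), whereas the Tfam+/- and Zbp1-/- pairs stood far apart (13.985 and 12.696). The main axis of variation, with 40.2% of the variance, set Tfam+/- replicate 1 and Zbp1-/- replicate 2 apart from the other 6. Each result is given from the fit that counts all 8 libraries. With the WT and Tfam+/-Zbp1-/- pairs each averaged to 1 sample, an alternative chosen after seeing the data, limma called 0 of 13267 genes and 0 of the 10 factors in each of the 6 comparisons. Unadjusted p-values under 0.05 then numbered 270 to 916 genes, and the lowest adjusted p of any factor was 0.264. No call below therefore holds if both of those pairs count as 1 sample each.

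The clearest pattern was a higher level of most of the factors in Tfam+/-Zbp1-/-. In 9 of the 10 (all but Shox2) both Tfam+/-Zbp1-/- libraries lay above the other 6, an order seen in 14.9% of all tested genes. Both Tfam+/- libraries lay below the other 6 for 5 factors (Tbx5, Tbx4, Twist1, Tbx15 and Lhx9), against 8.5% of genes. The 4 libraries without Zbp1 lay above the 4 with it for 6 factors (Tbx4, Pitx1, Hand2, Twist1, Msx1 and Tbx15), against 12.3% of genes. These orders were picked after the values were seen and carry no test. Adjusted p-values below come from limma on log2 (normalized count + 1) with Benjamini-Hochberg adjustment over 13267 genes, and a gene is called at an adjusted p under 0.05. Changes are log2 differences on that scale, with the standard error.

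**Figure D1:**
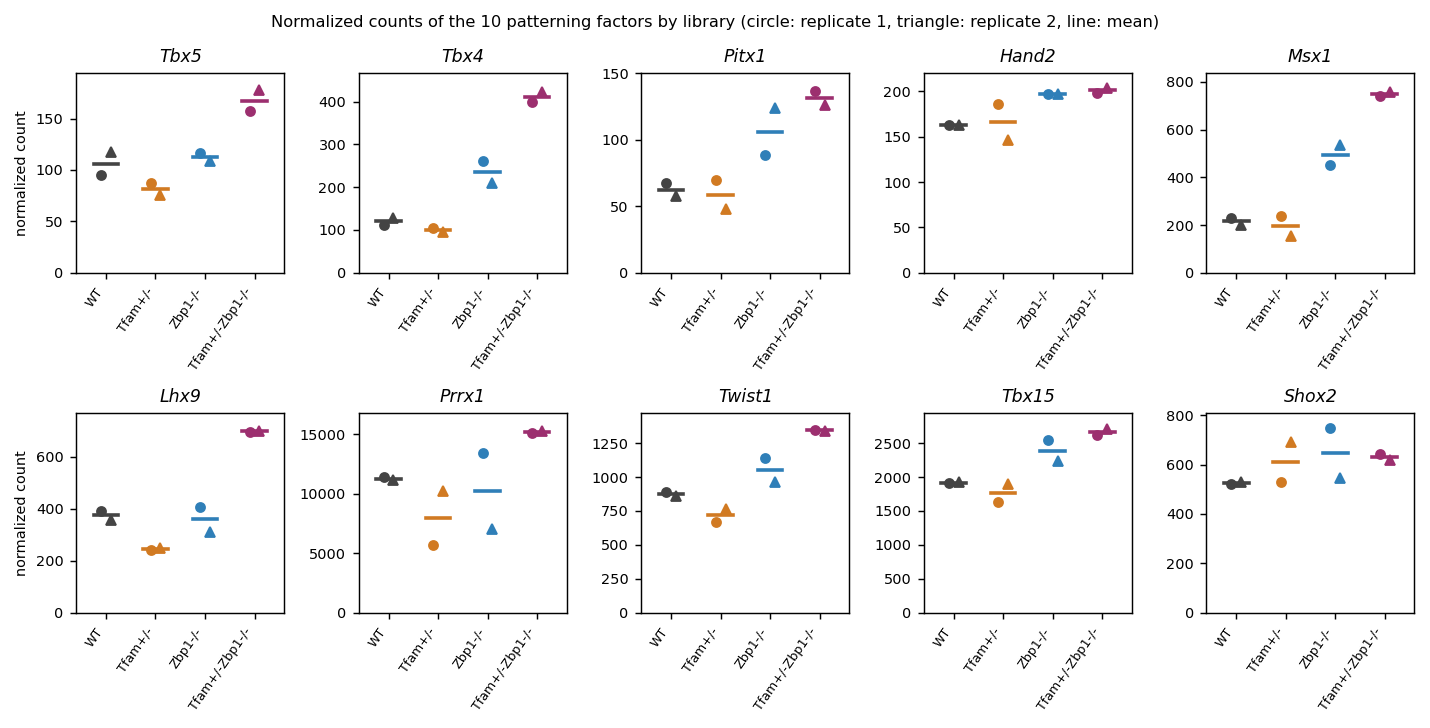
Normalized counts (y axis, from 0) of each of the 10 factors in the 8 libraries, by genotype. Circles are replicate 1, triangles replicate 2 and lines the mean of both; in every panel except Shox2 the 2 Tfam+/-Zbp1-/- points are the highest, and the Prrx1 panel shows the wide gap inside the Tfam+/- and Zbp1-/- pairs.

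Levels between the factors can be set side by side only per length of transcript. Per kb of the longest annotated protein-coding transcript, the mean over the 8 libraries was 1714 normalized counts for Prrx1, 613 for Twist1 and 612 for Tbx15. Msx1 (214) and Shox2 (196) came next, and Lhx9 (84.9), Hand2 (77.3) and Tbx4 (68.7) lay close together. Pitx1 (36.6) and Tbx5 (29.6) were the lowest. The general mesenchymal factors thus stood above the limb-type factors on this scale, but the order depends on the isoform: with the shortest transcript Tbx15 would be at 6554 and Tbx5 at 178.

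Promoter sequence is shown for the 3 factors that rose in both main comparisons (Tbx4, Msx1 and Lhx9) and for Shox2, one of the factors that did not pass in any comparison. The stretches are the 250 bases before an annotated start of each gene on GRCm38.p6, read 5′ to 3′ along the gene. E-boxes (CANNTG, the motif that bHLH factors such as Twist1 and Hand2 bind, a palindrome read on both strands) are in capitals. They lie at chr11:85896515-85896764 (plus strand, Tbx4), chr5:37824586-37824835 (minus, Msx1), chr1:138842445-138842694 (minus, Lhx9) and chr3:66981772-66982021 (minus, Shox2).
Tbx4: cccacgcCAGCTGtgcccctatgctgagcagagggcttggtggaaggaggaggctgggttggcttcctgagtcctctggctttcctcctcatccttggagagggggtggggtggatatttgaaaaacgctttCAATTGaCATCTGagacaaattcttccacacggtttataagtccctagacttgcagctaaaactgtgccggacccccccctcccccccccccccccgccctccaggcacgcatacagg
Msx1: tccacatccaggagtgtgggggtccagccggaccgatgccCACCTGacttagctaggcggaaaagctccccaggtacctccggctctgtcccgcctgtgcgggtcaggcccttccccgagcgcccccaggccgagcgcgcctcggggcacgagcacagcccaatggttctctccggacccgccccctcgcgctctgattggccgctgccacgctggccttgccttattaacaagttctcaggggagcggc
Lhx9: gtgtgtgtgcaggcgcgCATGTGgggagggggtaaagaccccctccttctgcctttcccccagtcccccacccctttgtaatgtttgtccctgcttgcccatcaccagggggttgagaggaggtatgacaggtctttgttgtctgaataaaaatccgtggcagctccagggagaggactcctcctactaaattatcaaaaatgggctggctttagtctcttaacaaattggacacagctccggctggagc
Shox2: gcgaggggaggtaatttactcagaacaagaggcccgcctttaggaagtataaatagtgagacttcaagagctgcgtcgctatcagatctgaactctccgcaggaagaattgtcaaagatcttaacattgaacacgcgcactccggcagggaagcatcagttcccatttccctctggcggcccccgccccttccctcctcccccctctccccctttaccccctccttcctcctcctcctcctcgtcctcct

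The Tbx4 stretch holds 3 E-boxes, those of Msx1 and Lhx9 hold 1 each, and that of Shox2 holds 0. Calls and E-boxes did not go together over the promoters not printed. That of Hand2, not called in any comparison, holds 2. Those of Twist1, called against Tfam+/-, and Prrx1, not called, hold 0. E-boxes are common: 66.2% of 32851 mouse promoters of this length hold at least 1. The Tbx4 and Lhx9 stretches lie inside the annotated genes, before later starts, and those of Msx1 and Shox2 lie directly before the annotated gene. The bases after the stretch matched the opening of an annotated protein-coding transcript for Tbx4, Lhx9 and Shox2, but not for Msx1. GC content was 58.4% for Tbx4, 68.0% for Msx1, 53.6% for Lhx9 and 55.6% for Shox2, against a median of 52.4% over all promoters. A match of letters is a description of the window and not a bound site.

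Among the factors of limb type, Tbx4 differed most between genotypes. Tbx4 (chr11:85886367-85916097), the T-box factor of the hindlimb, was at 111 and 129 normalized counts (WT), 105 and 95.4 (Tfam+/-), 261 and 209 (Zbp1-/-), and 399.7 and 423 (Tfam+/-Zbp1-/-). All 4 libraries without Zbp1 lay above all 4 with it, and the 2 Tfam+/-Zbp1-/- libraries lay highest. It rose by 2.02 ± 0.16 in Tfam+/-Zbp1-/- against Tfam+/- (adjusted p = 0.00251 in limma), 4.07-fold, and by 1.77 ± 0.16 against WT (adjusted p = 0.01). In Zbp1-/- against WT the difference was 0.96 ± 0.16, with an adjusted p of 0.0535 in limma. The call against WT was lost without either WT library or either Tfam+/-Zbp1-/- library (highest adjusted p 0.216). The call against Tfam+/- was lost without either Tfam+/-Zbp1-/- library (highest 0.0554), while the differences stayed between 1.67 and 2.10.

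Pitx1 (chr13:55825044-55836190), the homeodomain factor upstream of Tbx4 in the hindlimb, followed a like order at a lower level. It measured 67.2 and 57.9 (WT), 69.8 and 47.9 (Tfam+/-), 88.6 and 124 (Zbp1-/-), and 137 and 126 (Tfam+/-Zbp1-/-). The 4 libraries without Zbp1 did not overlap the 4 with it, but Zbp1-/- replicate 2 came within a few counts of Tfam+/-Zbp1-/-. Pitx1 rose by 1.17 ± 0.25 in Tfam+/-Zbp1-/- against Tfam+/- (adjusted p = 0.0445 in limma), and this call was lost when any of 5 single libraries was left out (both WT, both Tfam+/-Zbp1-/- and Tfam+/- replicate 2, highest adjusted p 0.288). Its differences of 1.06 ± 0.25 between Tfam+/-Zbp1-/- and WT (adjusted p = 0.110 in limma) and 0.74 ± 0.25 between Zbp1-/- and WT (adjusted p = 0.192) missed the threshold.

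Tbx5 (chr5:119796514-119885220), the forelimb and heart factor, did not share the order set by Zbp1. Its values were 94.9 and 117 (WT), 87.0 and 75.9 (Tfam+/-), 116 and 109 (Zbp1-/-), and 157 and 178 (Tfam+/-Zbp1-/-). WT and Zbp1-/- overlapped, Tfam+/- lay below and Tfam+/-Zbp1-/- above. Tbx5 rose by 1.03 ± 0.17 in Tfam+/-Zbp1-/- against Tfam+/- (adjusted p = 0.0184 in limma). The call was lost without Tfam+/- replicate 2 or either Tfam+/-Zbp1-/- library (highest adjusted p 0.183). Against WT the difference was 0.66 ± 0.17 (adjusted p = 0.142).

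The level of Tbx5 was set against that of each hindlimb gene in the same library. The log2 ratio of Tbx5 to Tbx4 was -0.18 in WT, -0.30 in Tfam+/-, -1.06 in Zbp1-/- and -1.30 in Tfam+/-Zbp1-/- (means of 2 libraries). The 4 libraries without Zbp1 ran from -1.35 to -0.94 and the other 4 from -0.33 to -0.13. For Tbx5 to Pitx1 the means were 0.76, 0.49, 0.10 and 0.35 in the same order, and the libraries with Zbp1 (0.32 to 1.02) overlapped those without it (-0.19 to 0.49). Both WT libraries lay above all 4 without Zbp1, by a margin that at its narrowest was 0.4975 against 0.4946. These ratios were computed per library from normalized counts without a test, and the constant difference in transcript length between genes does not enter their change.

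**Figure D2:**
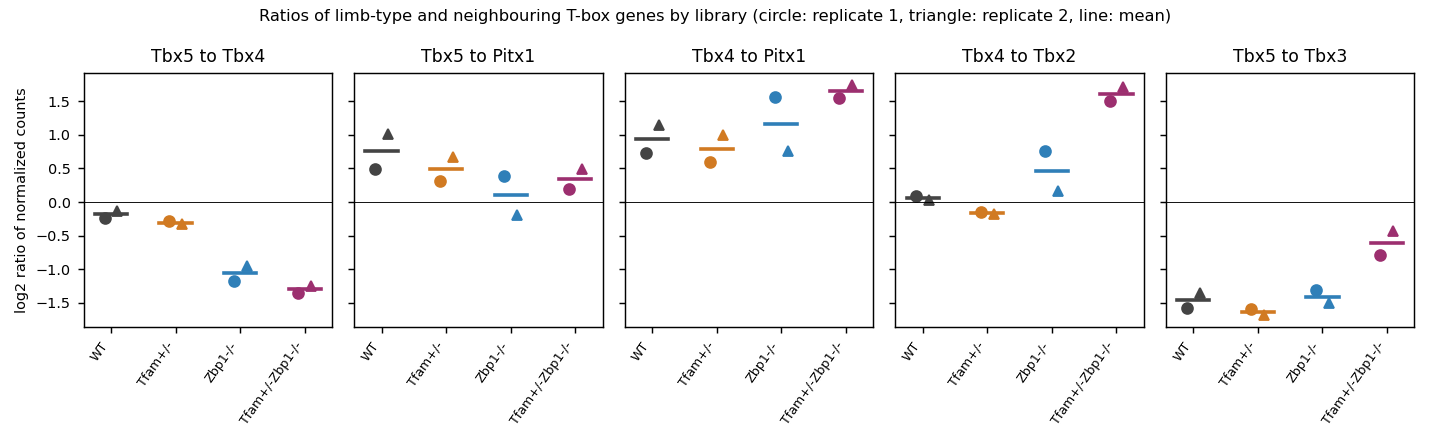
Log2 ratios of normalized counts (y axis) of Tbx5 to Tbx4, Tbx5 to Pitx1, Tbx4 to Pitx1, Tbx4 to Tbx2 and Tbx5 to Tbx3 in each library, by genotype (circle replicate 1, triangle replicate 2, line the mean). The Tbx5 to Tbx4 ratio is below -0.9 in the 4 libraries without Zbp1 and above -0.4 in the other 4, while for Tbx5 to Pitx1 the Tfam+/- points overlap those of both genotypes without Zbp1.

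The factors of the limb bud's margin and distal mesenchyme included the other large changes. Msx1 (chr5:37820491-37824585), a homeodomain repressor induced by BMP in distal mesenchyme, was at 231 and 202 (WT), 236 and 154 (Tfam+/-), 454 and 536 (Zbp1-/-), and 742 and 757 (Tfam+/-Zbp1-/-). The 3 levels (with Zbp1, Zbp1-/- alone, Tfam+/-Zbp1-/-) did not overlap. Msx1 rose by 1.97 ± 0.21 in Tfam+/-Zbp1-/- against Tfam+/- (adjusted p = 0.00484 in limma) and by 1.79 ± 0.21 against WT (adjusted p = 0.0216), with 1.19 ± 0.21 for Zbp1-/- against WT (adjusted p = 0.0641). As for Tbx4, the first call was lost without either Tfam+/-Zbp1-/- library (highest adjusted p 0.0701), and the second also without either WT library (highest 0.265). The antisense gene Msx1os, which overlaps it, was listed at 0 in every library.

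Lhx9 (chr1:138825186-138848839), a LIM-homeodomain factor of the limb mesenchyme that acts with Lhx2 downstream of FGF signals, had another order. Its normalized counts were 391 and 358 (WT), 239.6 and 249 (Tfam+/-), 408 and 312 (Zbp1-/-), and 696 and 699.5 (Tfam+/-Zbp1-/-). Tfam+/- was the lowest genotype and Tfam+/-Zbp1-/- the highest, with WT and Zbp1-/- overlapping between them. Lhx9 rose by 1.51 ± 0.15 in Tfam+/-Zbp1-/- against Tfam+/- (adjusted p = 0.0042 in limma) and by 0.90 ± 0.15 against WT (adjusted p = 0.0484). Between Tfam+/- and WT it differed by -0.61 ± 0.15 (adjusted p = 0.236). The first call was lost without either Tfam+/-Zbp1-/- library (highest adjusted p 0.0684), and the call against WT was lost in 6 of the 8 single-library omissions, all but those of Zbp1-/- (highest 0.401). It was also lost with rescaling (adjusted p = 0.0673) and with no filter (adjusted p = 0.0655).

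Hand2 (chr8:57320983-57324517), the bHLH factor of the posterior limb margin that is also a heart and branchial arch gene, varied least. It measured 163 and 163 (WT), 186 and 146 (Tfam+/-), 198 and 197 (Zbp1-/-), and 198 and 204 (Tfam+/-Zbp1-/-). The 4 libraries without Zbp1 lay above the 4 with it by a small margin, and its highest value was 1.40 times its lowest. The largest of its differences was 0.30 ± 0.15 for Tfam+/-Zbp1-/- against WT (adjusted p = 0.475 in limma), and none passed.

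Of the factors expressed throughout the mesenchyme, Twist1 and Tbx15 rose and Prrx1 and Shox2 did not pass. Twist1 (chr12:33957671-33959831), a bHLH factor that keeps mesenchyme undifferentiated, was at 891 and 859 (WT), 669 and 765 (Tfam+/-), 1142 and 967 (Zbp1-/-), and 1350.2 and 1339 (Tfam+/-Zbp1-/-). The 4 genotypes did not overlap. Twist1 rose by 0.91 ± 0.13 in Tfam+/-Zbp1-/- against Tfam+/- (adjusted p = 0.00987 in limma), a call lost without either Tfam+/-Zbp1-/- library (highest adjusted p 0.118), and its difference from WT was 0.62 ± 0.13 (adjusted p = 0.0747).

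Tbx15 (chr3:99240348-99354260), a T-box factor of skeletal, skin and fat mesenchyme, measured 1904 and 1924 (WT), 1626 and 1893 (Tfam+/-), 2543 and 2229.8 (Zbp1-/-), and 2627 and 2713 (Tfam+/-Zbp1-/-). All libraries without Zbp1 exceeded all with it, within a narrow range of 1.67 times from lowest to highest. It rose by 0.61 ± 0.12 in Tfam+/-Zbp1-/- against Tfam+/- (adjusted p = 0.0336 in limma). Leaving out any of 5 libraries ended that call (both WT, both Tfam+/-Zbp1-/- and Tfam+/- replicate 1, highest adjusted p 0.263).

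Prrx1 (chr1:163245119-163315145), the paired-type homeodomain factor used as a marker of limb mesenchyme, was the most abundant of the 10. Its normalized counts were 11396 and 11174 (WT), 5684 and 10240.1 (Tfam+/-), 13452 and 7057 (Zbp1-/-), and 15160.4 and 15324 (Tfam+/-Zbp1-/-). Tfam+/- replicate 1 and Zbp1-/- replicate 2, the libraries that stand apart on the main axis of variation, were its 2 lowest. Prrx1 was 1.00 ± 0.35 higher in Tfam+/-Zbp1-/- than in Tfam+/-, and did not pass (adjusted p = 0.170 in limma). A term shared by those 2 libraries, added after seeing the data, was -0.89 for Prrx1, -0.42 for Shox2, 0.51 for Pitx1 and 0.43 for Msx1, and was called for 65.3% of all tested genes.

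Shox2 (chr3:66971723-66981771), a homeodomain factor of the proximal limb, was the exception among the 10. Its values of 519.5 and 528 (WT), 529.9 and 692 (Tfam+/-), 749 and 545 (Zbp1-/-), and 645 and 619 (Tfam+/-Zbp1-/-) overlapped across the 3 mutant genotypes, with WT the lowest. Its difference between Tfam+/-Zbp1-/- and Tfam+/- was 0.06 ± 0.19 (adjusted p = 0.876 in limma), and rescaling the libraries turned it to -0.08. The gene overlaps Rsrc1, which differed by 0.29 ± 0.15 (adjusted p = 0.324), and whether the counting used strand is not stated.

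Compared with Tfam+/-, Tfam+/-Zbp1-/- had 7 of the 10 factors called, all higher (Tbx5, Tbx4, Pitx1, Twist1, Msx1, Tbx15 and Lhx9). Of all tested genes 5.64% were called and 3.32% were called higher. The median difference of the 10 was 1.01, against 0.14 over all genes. Hand2, Prrx1 and Shox2 did not pass. This comparison asks what the loss of Zbp1 does on the Tfam+/- background. After rescaling, 5 factors were called, without Pitx1 and Tbx15, and the median over all genes moved to 0.00. With no filter 6 were called, without Pitx1. Without either Tfam+/-Zbp1-/- library 0 factors were called.

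Against WT, Tfam+/-Zbp1-/- had 3 of the 10 called, all higher (Tbx4, Msx1 and Lhx9), where 1.38% of all genes were called and 0.897% were called higher. The median of the 10 was 0.64 and that of all genes 0.12, and all 10 differences were above 0. The same Tfam+/-Zbp1-/- libraries enter this comparison and the previous one, so they are not independent. A fit on the WT and Tfam+/-Zbp1-/- libraries alone called all 10 factors, but it also called 5935 of 13267 genes, since its spread came from the pairs that differ by little more than sampling. Leaving out either WT library or either Tfam+/-Zbp1-/- library from the fit on all libraries ended all 3 calls. Rescaling, or no filter, left 2 (Tbx4 and Msx1).

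In Zbp1-/- against WT, 0 of the 10 were called by limma, where 1.06% of all genes were. Unadjusted p-values under 0.05 were found for 4 factors and 2619 genes. The largest differences were those of Msx1 and Tbx4 given above, both of which passed when either Tfam+/- library was left out of the shared estimate of spread. For 7 factors both Zbp1-/- libraries lay above both WT libraries, an order that 42.1% of all genes shared. The median of the 10 was 0.28 against 0.11 over all genes.

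In Tfam+/- against WT, 0 of the 10 were called by limma, where 0.731% of all genes were, and 1 factor (Lhx9) and 1159 genes had an unadjusted p under 0.05. The median of the 10 was -0.22 against -0.01 over all genes. For 6 factors both Tfam+/- libraries lay below both WT libraries, as did 25.5% of all genes. In Tfam+/-Zbp1-/- against Zbp1-/-, limma called 0 of the 10 and 0.415% of all genes, with 5 factors and 1626 genes at an unadjusted p under 0.05. Its largest differences were 0.97 ± 0.15 for Lhx9 (adjusted p = 0.0648) and 0.81 ± 0.16 for Tbx4 (adjusted p = 0.122). For 9 factors both Tfam+/-Zbp1-/- libraries exceeded both Zbp1-/- libraries, against 26.2% of genes.

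The interaction asks whether Tfam heterozygosity had another effect on the Zbp1-/- background than on WT. It was called for Lhx9 alone among the 10, at 1.58 ± 0.21 (adjusted p = 0.0379 in limma), where 0.663% of all genes were called and 0.219% were called higher. Lhx9 was 0.61 lower in Tfam+/- than in WT and 0.97 higher in Tfam+/-Zbp1-/- than in Zbp1-/-. The call was lost in 7 of the 8 single-library omissions, all but that of Zbp1-/- replicate 1 (highest adjusted p 0.279), and the value stayed between 1.39 and 1.77. With no filter it was lost too (adjusted p = 0.0538). Tbx4 (1.06 ± 0.23, adjusted p = 0.110) and Tbx5 (0.94 ± 0.24, adjusted p = 0.159) did not pass. Unadjusted p-values under 0.05 were found for 6 of the 10 and for 2123 genes.

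**Figure D3:**
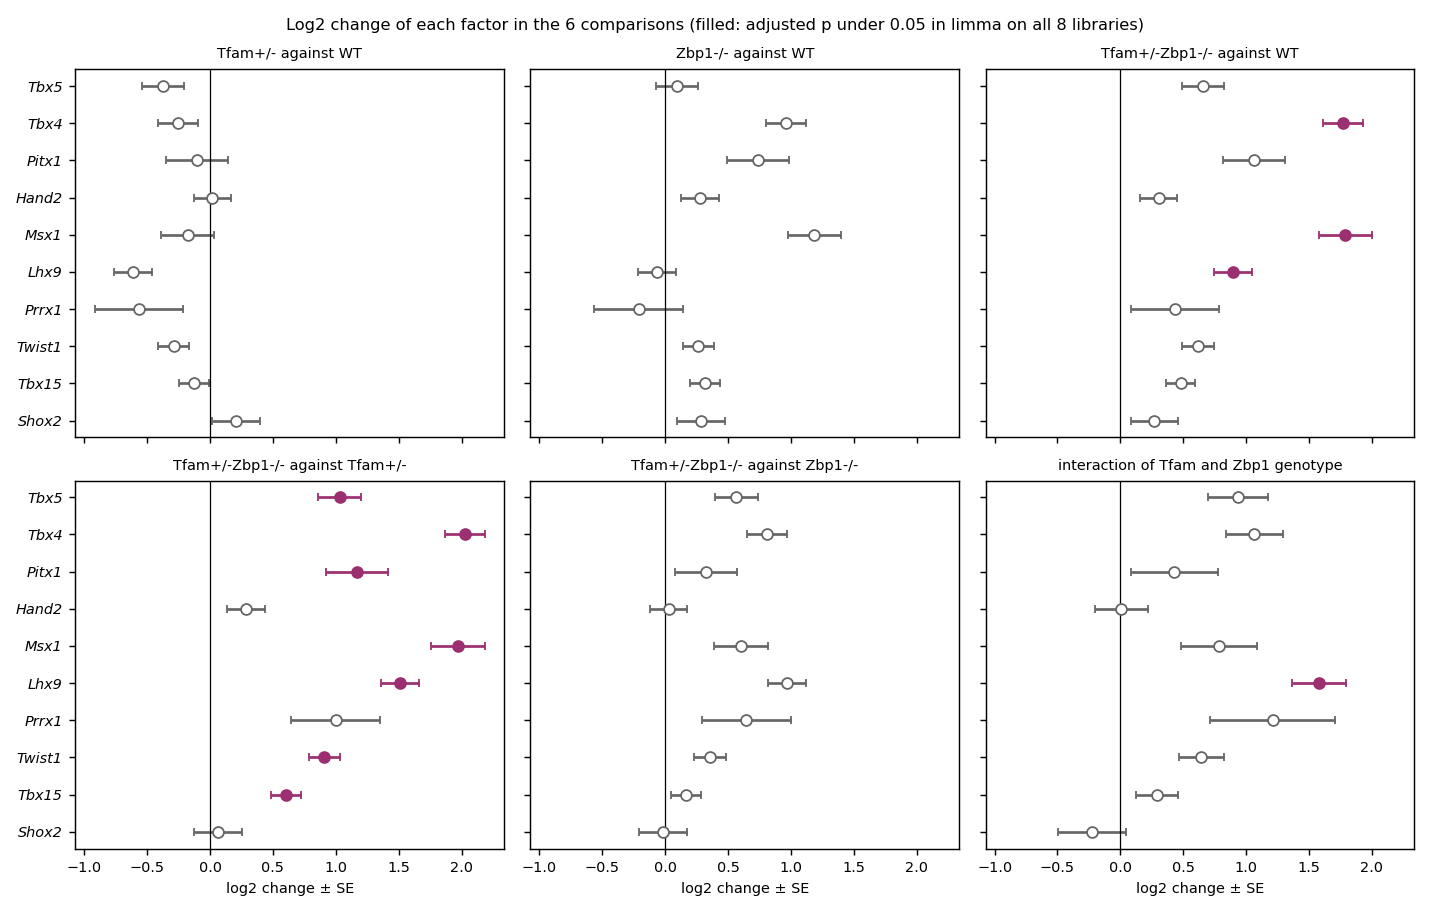
Log2 change (x axis, point) with its standard error (bar) for the 10 factors in the 5 pairwise comparisons and the interaction, from limma on all 8 libraries. Filled points have an adjusted p under 0.05: 7 in Tfam+/-Zbp1-/- against Tfam+/-, 3 against WT, 1 (Lhx9) in the interaction and 0 in the others.

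Neither of the T-box genes next to Tbx4 and Tbx5 passed the test. Tbx2, a T-box gene 44419 bases from Tbx4, differed by 0.27 ± 0.17 in Tfam+/-Zbp1-/- against Tfam+/- (adjusted p = 0.387 in limma). Tbx3, 111790 bases from Tbx5, differed by 0.01 ± 0.13 (adjusted p = 0.976). The log2 ratio of Tbx4 to Tbx2 was 0.06 in WT, -0.16 in Tfam+/-, 0.46 in Zbp1-/- and 1.60 in Tfam+/-Zbp1-/-, and that of Tbx5 to Tbx3 was -1.46, -1.64, -1.40 and -0.61. Of the neighbouring genes looked up for the other factors, Hdac9, 87749 bases from Twist1, rose by 1.51 ± 0.32 (adjusted p = 0.0441). Tifab, 337513 bases from Pitx1 and at a mean of 13.08 normalized counts, near the filter, fell by 1.95 (adjusted p = 0.0378). Both were picked out after their values were seen.

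The list of other transcription factors of the limb and mesenchyme held 4 further genes that rose. In Tfam+/-Zbp1-/- against Tfam+/-, 4 of 29 tested genes (of 34 listed) rose and 0 fell, where 5.64% of all tested genes were called and 3.32% called higher. The list median was 0.39, against 0.14 over all genes. Lhx2, the partner of Lhx9, rose by 2.24 ± 0.17 (adjusted p = 0.00251 in limma), from 40.0 and 43.6 normalized counts to 209 and 193. The zinc-finger factors Sall1 (2.21 ± 0.20) and Osr2 (1.80 ± 0.19), and Prrx2 (1.22 ± 0.12), the paralog of Prrx1, were the other 3. The same 4 rose against WT, where 1.38% of all genes were called, by 1.62 for Lhx2, 1.39 for Sall1, 2.13 for Osr2 and 0.95 for Prrx2.

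In Zbp1-/- against WT, where 1.06% of all genes were called, 3 of the 29 rose. Osr2 rose by 2.06 ± 0.19 (adjusted p = 0.0130 in limma). The proximal factor Irx3 rose by 0.92 ± 0.15 (adjusted p = 0.0494) and the anterior factor Alx4 by 0.89 ± 0.12 (adjusted p = 0.0295). With replicate number as a block in the fit, all genes called in this comparison went from 141 to 1, so at most 1 of these 3 calls held. Osr2 measured 59.4 and 53.0 normalized counts (WT), 82.3 and 61.3 (Tfam+/-), 219 and 259 (Zbp1-/-), and 255 and 244 (Tfam+/-Zbp1-/-). Its libraries without Zbp1 all lay above those with it. In the interaction, where 0.663% of all genes were called, Lhx2 passed at 1.84 ± 0.24 (adjusted p = 0.0349 in limma), beside Lhx9. With the replicate block, 0 of all tested genes were called in the interaction, so neither call held. None of the 29 passed in Tfam+/- against WT, where Foxc1 had the largest difference (-1.23), or in Tfam+/-Zbp1-/- against Zbp1-/-, where Lhx2 (1.22) and Sall1 (0.92) differed most.

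Of the limb bud signalling genes, 17 of 21 were tested, and Shh and Fgf8, the signals of the posterior margin and the ectodermal ridge, stayed at or below 1.06 normalized counts in every library. In Tfam+/-Zbp1-/- against Tfam+/-, 6 rose and 1 fell, again where 5.64% of all genes were called and 3.32% called higher. The list median was 0.64, against 0.14. Rspo2, a WNT agonist of the ridge and mesenchyme, rose by 2.14 ± 0.20, Bmp4 by 1.63 ± 0.11 and Bmp2 by 1.50 ± 0.26. Bmp4, a BMP ligand upstream of Msx1, measured 579 and 556 (WT), 377 and 358 (Tfam+/-), 1103 and 1106 (Zbp1-/-), and 1081 and 1192 (Tfam+/-Zbp1-/-). Its order across genotypes separated libraries without Zbp1 from those with it, as for Msx1. Aldh1a2, which makes retinoic acid, fell by 1.23, from 120 and 131 to 54.9 and 51.1.

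Against WT, where 1.38% of all genes were called, Rspo2 (1.57 ± 0.20) and Bmp4 (1.00 ± 0.11) rose in Tfam+/-Zbp1-/- and Aldh1a2 fell by 1.24. Bmp4 was the 1 signalling gene called in Zbp1-/- against WT (0.96 ± 0.11, adjusted p = 0.0183 in limma), and Aldh1a2 the 1 called in Tfam+/-Zbp1-/- against Zbp1-/- (a decrease, -1.17). Of all genes 1.06% and 0.415% were called in those 2 comparisons. With replicate number as a block in the fit, 1 gene of all tested was called in each of them. None was called in Tfam+/- against WT or in the interaction.

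The HOX genes, which encode position along the limb and the body axis, moved in both directions. In Tfam+/-Zbp1-/- against Tfam+/-, 6 of 13 tested (of 14) rose and 1 fell, beside the same 5.64% of all genes called and 3.32% called higher. The list median was 0.94, against 0.14. Hoxd13 rose by 2.23 ± 0.24, Hoxa13 by 1.96 ± 0.28, Hoxd11 by 1.59 ± 0.14 and Hoxd10 by 1.55 ± 0.23, all genes used in the middle and distal limb. The 1 that fell was Hoxc10 (-1.04), named after its value was seen. Hoxd13, the most distal of the HOXD cluster, measured 998 and 871 (WT), 367 and 499 (Tfam+/-), 839 and 531 (Zbp1-/-), and 1959 and 2053 (Tfam+/-Zbp1-/-).

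Hoxd11 was called in 3 more comparisons, at 0.88 against WT, 1.34 against Zbp1-/- and 2.04 in the interaction. Of all tested genes 1.38%, 0.415% and 0.663% were called there. Of the 13 HOX genes, 1 rose and 2 fell against WT, and likewise against Zbp1-/-. In the interaction 2 were called above 0 and 1 below. Hoxd13 was called in the interaction at 2.71 ± 0.34 (adjusted p = 0.0299 in limma). Hoxc10 fell by 0.80 against WT and by 1.08 against Zbp1-/-, with -1.32 in the interaction. With replicate number as a block in the fit, 0 of all tested genes were called in the interaction, so its HOX calls were lost. Only 8 genes of all tested were then called against WT, and 1 against Zbp1-/-. Hoxc8, a HOXC gene of the trunk, fell by 0.68 against WT and by 0.85 against Zbp1-/-. No HOX gene of the 13 was called in Zbp1-/- against WT or in Tfam+/- against WT, where Hoxd13 differed most (-1.12).

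**Figure D4:**
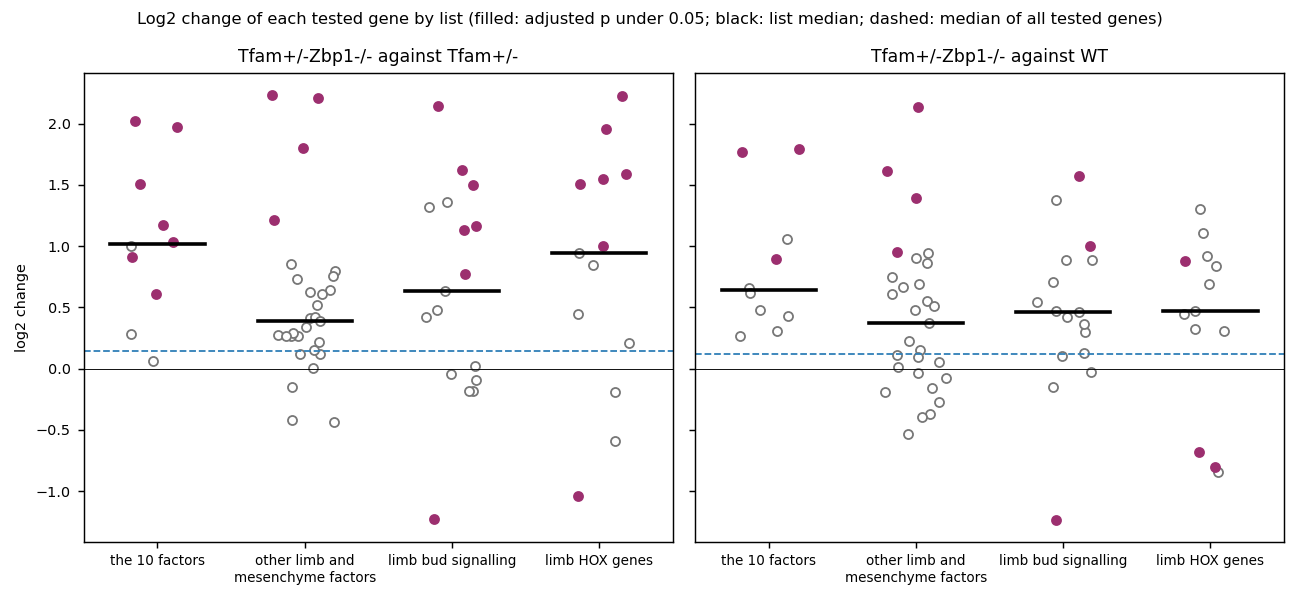
Log2 change (y axis) of each tested gene in the list of 10 factors and the 3 other lists, for Tfam+/-Zbp1-/- against Tfam+/- (left) and against WT (right). Filled points have an adjusted p under 0.05, black lines are list medians and the dashed line is the median of all tested genes (0.14 left, 0.12 right); most points of the 10 factors lie above the dashed line.

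The labelled cell type was borne out by its markers: all 10 fibroblast and mesenchyme markers were tested, and their summed level was 500520 to 737090 normalized counts over the 8 libraries. Heart muscle, where Tbx5 and Hand2 are also used, was nearly absent, with Nkx2-5 between 0 and 3.03 normalized counts and 1 of 8 markers tested. The summed level of the 8 leukocyte markers was 4332 to 4378 in WT, 5038 to 5377 in Tfam+/-, 2532 to 2774 in Zbp1-/- and 2242 to 2268 in Tfam+/-Zbp1-/-. The libraries without Zbp1 thus had the lower sums. They had the higher values for 6 factors, but not for Tbx5, Lhx9, Prrx1 and Shox2. Lyz2 made up most of each sum (2855 and 2844 in WT). Cd14 was higher in Zbp1-/- (125 and 150) than in WT (101 and 112). In Tfam+/-Zbp1-/- against Tfam+/-, 7 of the 8 fell, where 5.64% of all tested genes were called and 3.32% called higher. The part of the leukocyte list in the results on the factors was not tested.

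The cranial neural crest and Schwann list (7 of 8 tested) summed to 427 to 449 in WT, 451 to 506 in Tfam+/-, 760 to 834 in Zbp1-/- and 1138 to 1159 in Tfam+/-Zbp1-/-. Tfap2b and Tfap2a, which limb buds also express, were its only members called in Tfam+/-Zbp1-/- against Tfam+/-, at 1.77 ± 0.14 and 1.47 ± 0.18. Calls in the other lists of this paragraph are from that comparison too, where 5.64% of all tested genes were called and 3.32% called higher. Sox10, which defines crest and Schwann cells, was at 21.3 and 31.5 (WT), 39.1 and 35.9 (Tfam+/-), 65.2 and 92.7 (Zbp1-/-), and 22.4 and 31.9 (Tfam+/-Zbp1-/-), so it did not share that order. The cartilage list (7 of 8 tested, Matn1 at 0 throughout) summed to 997 to 1228 in Tfam+/- and 1133 to 1145 in Tfam+/-Zbp1-/-, with 3 members called higher. Col2a1, the largest part of each sum, was at 971 and 654, then 572 and 544. Of the 7 tested members, 5 were higher and 2 lower, and Comp went from 15.5 and 8.64 to 114 and 96.1. The skeletal muscle list (1 of 8 tested) summed to 607 to 926 and 371 to 375, and epithelium (3 of 8 tested, 2 called lower) to 340 to 513 and 204 to 208, in the same 2 genotypes. Des made up most of the muscle sums (899 and 588 in Tfam+/-, 358 and 366 in Tfam+/-Zbp1-/-), and Myod1 was at 0 in both genotypes. The tested epithelial genes were the keratins Krt8, Krt14 and Krt18, while Epcam and Cdh1 averaged 2.25 and 2.98 over the 8 libraries. Visceral mesenchyme and mesothelium (6 of 8 tested) summed to 1452 to 1806 and 1327 to 1338, with 5 of the 6 lower, a median of -0.75 and 1 called (Upk3b, -0.95), while Msln, the most abundant there, differed by 0.18. Endothelium (3 of 6 tested) summed to 396 to 461 and 318 to 337, with 1 called lower (Emcn, fold 0.25), and neuron (4 of 7 tested, 0 called) to 1126 to 1213 and 1298 to 1301. The part of these lists in the results on the factors was not tested either.

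**Figure D5:**
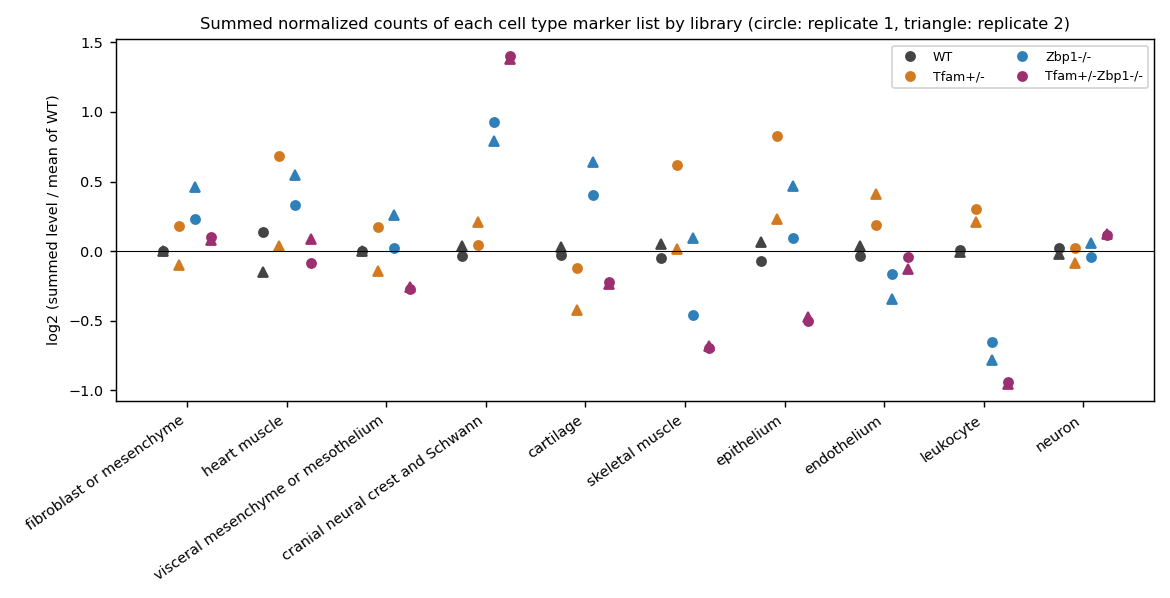
Summed level of each cell type marker list in each library as log2 of its ratio to the WT mean (y axis), by genotype and replicate. The leukocyte list is lowest and the cranial neural crest and Schwann list highest in Tfam+/-Zbp1-/-, while the fibroblast list stays within 0.5 of WT.

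The genes whose profiles over the 8 libraries lay closest to each factor were found by the root mean square difference of centred log2 values. For Tbx5 the 3 nearest of 13267 were Cdkn2c (0.06), a cell cycle inhibitor, Prob1 and Hspb6. For Tbx4 they were Col10a1 (0.20), the collagen of hypertrophic cartilage, Tfap2b (0.21) and Sfrp2 (0.22), a secreted WNT modulator. Col10a1 measured 480 and 462 normalized counts (WT), 284 and 304 (Tfam+/-), 828 and 825 (Zbp1-/-), and 1341 and 1295 (Tfam+/-Zbp1-/-). For Pitx1 they were Als2cl (0.12), Sema3f and Chrd, a BMP antagonist. Msx1 was nearest to Anxa8 (0.12), Epn3 and Kcnk3, and Lhx9 to Coch (0.10), Mecom and Rcan2.

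Anxa8, an annexin, measured 776 and 719 (WT), 787 and 658 (Tfam+/-), 1661 and 2042 (Zbp1-/-), and 2538 and 2530 (Tfam+/-Zbp1-/-), the same 3 levels as Msx1. Prrx1 was nearest to Kansl1l (0.06), Arl4a and Xist, which shared its low values in Tfam+/- replicate 1 and Zbp1-/- replicate 2: Kansl1l was at 188 and 226 there, and between 362 and 527 in the other 6. Hand2 was nearest to Kat8 (0.03), Wasf3 and Ctdsp1, and Shox2 to Cask (0.08), Tpbg and Jag1. Twist1 was nearest to Robo1 (0.07), Plekhh2 and Foxo1, and Tbx15 to Lmo7 (0.05), Zfp704 and Ifnar1. A small distance is easier to reach for a factor that varies little, and the SD of the log2 profile was 0.18 for Hand2 and 0.90 for Msx1.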

How the data were processed

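Total RNA of 8 libraries from untreated primary mouse embryonic fibroblasts was sequenced. Per the labels, the authors aligned reads to mm10 (RefSeq) with STAR and took expression from BaseSpace differential expression software. The submitters' processing notes give STAR 2.6.1a and also name Salmon. The deposited values are normalized counts, a signal that is not whole reads: 22.2% to 34.9% of low values came within 0.01 of whole reads, so no count test was run. The kind of scaling, the counting method and the use of strand were not given in the sources used here.

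From these, log2 (normalized count + 1) was computed for the 13267 of 24972 genes that averaged at least 10 across libraries (6652 genes were at 0 in all). limma 3.58.1 in R 4.3.3 (trended eBayes, 4 residual and 2.77 prior degrees of freedom) fitted genotype on all 8 libraries, two-sided, with Benjamini-Hochberg adjustment and a threshold of 0.05. Both libraries of a genotype were used as replicates. An exact permutation of 2 against 2 libraries cannot go below 0.333. The fit was run on simulated data with independent libraries, the same spread per gene in every library, and changes set in Tfam+/- alone. That simulation lacked the unequal spread between pairs seen here, so it cannot show how the calls behave under it. Figures used matplotlib 3.10.9 and Python 3.11.15. Sequences and neighbours are from RefSeq on GRCm38.p6, where 24407 of 24970 gene names (97.8%) matched and 7 of the 10 factors had a promoter.

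The 10 factors and the gene and marker lists were chosen with earlier results of these data known. The text names all 10 factors, Tfam and Zbp1, up to 4 called genes with the largest change per list and comparison (the 2 largest differences where none was called), and the 3 nearest profiles per factor. Alternatives were a pseudocount of 5 or 0.1, a minimum mean of 50 or none, rescaling by a trimmed mean of M-values, a replicate block, fits on only the genotypes compared, and leaving out each library. A term shared by Tfam+/- replicate 1 and Zbp1-/- replicate 2, leaving out both, and averaging the WT and Tfam+/-Zbp1-/- pairs were added after seeing the data.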

Additional observations from a re-analysis of the deposited data

Results flagged for a closer look

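The effect of Tfam heterozygosity on Lhx9 differed between the 2 Zbp1 backgrounds by a test of the difference itself: the interaction in limma was 1.58 on the log2 scale (adjusted p = 0.0379). Lhx9 was at 239.6 and 249 normalized counts in Tfam+/- against 391 and 358 in WT, and at 696 and 699.5 in Tfam+/-Zbp1-/- against 408 and 312 in Zbp1-/-. The call was lost with a replicate block (adjusted p = 0.141 in limma), with no filter (adjusted p = 0.0538) and with the WT and Tfam+/-Zbp1-/- pairs averaged. The adjusted p ranged from 0.0356 to 0.279 when single libraries were left out, and 7 of those 8 omissions ended the call.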

How the results depend on the processing

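Pseudocounts of 5 and 0.1 and a mean of at least 50 kept every call and every non-call of the 10 factors. Calls rest most on how the spread is estimated. For Tfam+/-Zbp1-/- against WT, 3 factors called became 0 with the replicate block, 10 with only the genotypes compared, 10 with the term shared by Tfam+/- replicate 1 and Zbp1-/- replicate 2, 10 in the 6 libraries without those 2 and 0 with the pairs averaged. Against Tfam+/-, 7 became 4 with the replicate block, 4 with only the genotypes compared and 0 with the pairs averaged, with 9 in both fits that deal with those 2 libraries. The interaction's 1 became 0 with no filter, with the replicate block and with the pairs averaged, and 8 in both of those fits. The other comparisons, with 0 called, gave 5 and 5 (Tfam+/- against WT), 7 and 6 (Zbp1-/- against WT) and 8 and 8 (Tfam+/-Zbp1-/- against Zbp1-/-) in those 2 fits. In the fit on 6 libraries the spread comes from the WT and Tfam+/-Zbp1-/- pairs alone. Leaving out single libraries gave 0 to 3 factors against WT, 0 to 7 against Tfam+/-, 0 to 1 in the interaction and 0 to 2 in Zbp1-/- against WT.

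Directions turned for the following differences, and the cause was not tested. With rescaling, Tbx5 in Zbp1-/- against WT became -0.0139, Shox2 in Tfam+/-Zbp1-/- against Tfam+/- became -0.078 and Hand2 in the interaction -0.0241. With the shared term and with 6 libraries, Hand2 in Tfam+/- against WT became -0.0663 and -0.15, Prrx1 in Zbp1-/- against WT 0.23 and 0.25, Lhx9 there 0.0423 and 0.13, and Shox2 against Tfam+/- -0.15 and -0.13. Over single-library omissions, Tfam+/- against WT ran from -0.37 to 0.16 for Pitx1, -0.15 to 0.19 for Hand2 and -0.49 to 0.13 for Msx1. Zbp1-/- against WT ran from -0.68 to 0.25 for Prrx1, -0.26 to 0.13 for Lhx9 and -0.0589 to 0.24 for Tbx5. Shox2 ran from -0.13 to 0.25 against Tfam+/-, -0.25 to 0.21 against Zbp1-/- and -0.45 to 0.0033 in the interaction, and Hand2 in the interaction from -0.16 to 0.18.

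Genes called in all changed with the replicate block from 97 to 28, 141 to 1, 183 to 8, 748 to 351, 55 to 1 and 88 to 0 over the 6 comparisons in the order Tfam+/-, Zbp1-/- and Tfam+/-Zbp1-/- against WT, the latter against Tfam+/- and Zbp1-/-, and the interaction. Only the genotypes compared gave 28, 1, 5935, 359 and 1. No filter gave 87 in Zbp1-/- against WT, 117 in Tfam+/-Zbp1-/- against WT, 26 against Zbp1-/- and 47 in the interaction, and rescaling 83 in Zbp1-/- against WT. The replicate numbers do not pair the libraries: deviations of same-numbered libraries correlated between -0.70 and 0.06 over the 6 pairs of genotypes.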
